A study of Rattus norvegicus with 288 samples.

Results

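The 10 genes described here, Atf4, Ddit3, Trib3, Asns, Chac1, Slc38a2, Sars1, Slc7a11, Psat1 and Slc3a2, belong to the amino acid stress response that runs through the transcription factor ATF4. They were picked by name, with earlier results of these data known, out of 14218 genes that had an array probe set annotated to a single symbol. Each was read from its brightest probe set in a tissue. The measurements came from Affymetrix whole-genome rat arrays of heart, kidney and liver from 96 male Sprague-Dawley rats aged 8 weeks, 288 arrays in all. Each rat was infused over 30 min with oxaliplatin at 15 mg/kg or with its vehicle, 5% dextrose in water (D5W). After another 30 min it was given an oral dose of water, of sunitinib at 5 mg/kg in water, of F68/PG/PEG400, in which propylene glycol and polyethylene glycol accompany the Pluronic surfactant (F68 from here on), or of sorafenib at 25 mg/kg in F68, and it was killed 1, 6 or 24 h later. This made 72 groups of 4 rats, all of them catheterised and infused, so no group was untreated. Water and sunitinib rats shared a dosing day and F68 and sorafenib rats were dosed 2 days later, so that a difference between F68 and water cannot be told apart from a difference between dosing days.

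The values are log2 intensities, on which a difference of 1 is a doubling, and they were compared only within a tissue. A gene was tested where it was over log2 6 on at least 4 arrays of the tissue, and a difference was called at an adjusted p under 0.05 (limma with Benjamini-Hochberg adjustment over all genes of the tissue). The tissues carried their own markers, read on each array as the median over the marker genes. On the arrays used this was 14.27 to 14.49 for heart genes in heart, 12.63 to 13.36 for kidney genes in kidney and 14.7 to 14.87 for liver genes in liver. A pair of arrays carried the markers of the other organ and were left out, 1 kidney and 1 liver array of rats given D5W then sorafenib and killed at 24 h. Among the arrays used, the level of the liver genes reached 10.23 on 1 kidney array of that same group (median over kidney arrays 7.32). It reached 8.59 on 1 heart array (median over hearts 5.73), and the level of the heart genes reached 8.79 on 1 kidney array (median over kidney arrays 5.59). The array median was 7.81 on 1 kidney array of the oxaliplatin then sunitinib group at 1 h, against a median of 7.35 over kidney arrays.

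When an amino acid runs short or unfolded proteins gather, kinases such as GCN2 and PERK phosphorylate the translation initiation factor eIF2, general protein synthesis falls, and the Atf4 mRNA is translated more. ATF4 then pairs with C/EBP family factors on C/EBP-ATF response elements and switches on genes that import amino acids, make them and load them on tRNA. Ddit3 encodes CHOP, a C/EBP factor tied to cell death under lasting stress, Trib3 a pseudokinase that restrains ATF4 and CHOP, and Chac1 an enzyme that breaks down glutathione. Asns makes asparagine, Psat1 acts in serine synthesis and Sars1 loads serine on its tRNA. Slc38a2 (SNAT2) imports small neutral amino acids, Slc7a11 (xCT) exchanges cystine for glutamate, and Slc3a2 (CD98hc, 4F2hc) is the heavy chain that carries Slc7a11 and other exchangers to the membrane. Atf4 itself is controlled largely by translation, which arrays do not see, although its mRNA can also rise.

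The promoter sequences are shown for the 3 genes that rose in the kidney 1 h after oxaliplatin, Atf4, Ddit3 and Slc38a2, and for the pair with a match to the C/EBP-ATF element, Trib3 and Chac1. Each is the 250 bases before the RefSeq start site on rat assembly GRCr8, written 5′ to 3′ on the gene's strand, with motif matches in capitals.
Atf4 (chr7:113684431-113684680, plus strand): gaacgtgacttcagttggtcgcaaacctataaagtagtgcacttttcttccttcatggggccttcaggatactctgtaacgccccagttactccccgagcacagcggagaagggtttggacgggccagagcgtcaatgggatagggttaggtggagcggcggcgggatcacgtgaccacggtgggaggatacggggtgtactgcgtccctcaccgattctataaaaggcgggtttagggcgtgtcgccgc
Ddit3 (chr7:65001445-65001694, plus strand): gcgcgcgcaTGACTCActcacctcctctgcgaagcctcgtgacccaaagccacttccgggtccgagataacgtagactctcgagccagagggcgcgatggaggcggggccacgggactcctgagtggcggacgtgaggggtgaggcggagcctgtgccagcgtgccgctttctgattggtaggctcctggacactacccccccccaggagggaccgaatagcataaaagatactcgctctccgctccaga
Slc38a2 (chr7:129742620-129742869, minus strand): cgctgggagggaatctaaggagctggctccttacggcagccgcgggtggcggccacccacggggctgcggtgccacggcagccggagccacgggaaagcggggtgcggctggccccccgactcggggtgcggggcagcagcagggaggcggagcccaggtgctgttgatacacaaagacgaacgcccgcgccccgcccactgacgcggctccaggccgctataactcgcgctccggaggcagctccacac
Trib3 (chr3:161275534-161275783, minus strand): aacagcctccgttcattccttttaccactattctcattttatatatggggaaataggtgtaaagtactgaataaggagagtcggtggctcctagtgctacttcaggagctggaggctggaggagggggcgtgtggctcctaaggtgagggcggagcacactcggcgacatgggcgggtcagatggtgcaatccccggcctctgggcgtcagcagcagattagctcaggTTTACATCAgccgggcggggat
Chac1 (chr3:126795881-126796130, plus strand): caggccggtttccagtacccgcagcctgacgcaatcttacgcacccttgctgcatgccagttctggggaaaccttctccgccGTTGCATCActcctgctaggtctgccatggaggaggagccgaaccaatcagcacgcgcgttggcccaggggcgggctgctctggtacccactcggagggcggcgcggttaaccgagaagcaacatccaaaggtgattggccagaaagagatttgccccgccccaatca

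All 10 genes had such a window among 33469 promoters, and 3 motifs were searched on both strands. For Asns, Psat1 and Slc7a11 the window lay inside the span of the gene, and for Sars1 partly inside it. The bases before the outermost start of Asns, Psat1 and Slc7a11 were therefore not searched. The C/EBP-ATF element TGATGNAAN, or NTTNCATCA on the other strand, was in 3.38% of all windows and in those of Trib3, 22 to 14 bases before the start, and of Chac1, 168 to 160 bases before it. The cyclic AMP element TGACGTNA, or TNACGTCA, was in 2.88% of all windows and in 0 of the 10. The AP-1 element TGANTCA, whose complement is the same, was in 6.34% of all windows and in that of Ddit3, 241 to 235 bases before the start. None of the 3 motifs overlapped another in the 10 windows, and these are matches of letters only. A gene can carry an element elsewhere than in this window.

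Levels in rats given no drug were read from the 24 given D5W then water or F68. In kidney, mean levels were 13.34 ± 0.1 (SD) for Psat1, 13.09 ± 0.11 for Slc3a2, 12.06 ± 0.3 for Atf4, 11.3 ± 0.46 for Slc38a2 and 10.88 ± 0.13 for Sars1. Lower down in kidney came Ddit3 at 9.18 ± 0.33, Asns at 7.75 ± 0.36, Chac1 at 7.5 ± 0.17 and Trib3 at 6.51 ± 0.1. These are probe set brightnesses and give no order of abundance between genes. Psat1 was at 13.34 in kidney, 8.03 in liver and 5.2 in heart, where no array reached the floor, with the limit that a normalization common to the tissues is not stated in the sources used here. The spread between rats was widest in liver, where Psat1 had an SD of 0.66 and Asns of 0.58 over the 24 rats. Slc7a11 was not measurable: no heart or liver array and 2 of 95 kidney arrays were over the floor, so that 8 genes were tested in heart and 9 each in kidney and liver.

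In the kidney, oxaliplatin raised 3 of the 9 genes at 1 h, the transcription factors Atf4 and Ddit3 and the transporter Slc38a2. Atf4 ran from 11.75 through a median of 12.07 to 12.44 in the 8 rats given D5W and a vehicle, and from 12.46 through 12.52 to 12.85 in the 8 given oxaliplatin and a vehicle. The ranges did not overlap, and Atf4 was 1.4-fold higher (log2 difference 0.49 ± 0.05 SE, limma adjusted p = 9.84e-11). Ddit3 ran from 9.15 through 9.56 to 9.7 after D5W and from 9.7 through 10.06 to 10.3 after oxaliplatin, so that the ranges only touched. It was 1.47-fold higher (0.55 ± 0.09, limma adjusted p = 2.38e-06). Slc38a2 ran from 10.49 through 11.38 to 12.31 against 11.32 through 11.65 to 12.69, with wide overlap, and was 1.32-fold higher (0.40 ± 0.11, limma adjusted p = 0.00657). Of all 12310 genes tested, 4.45% were called higher at 1 h.

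The other 6 genes tested in kidney lay close to 0 at 1 h, from -0.05 for Asns to 0.11 for Slc3a2, and the widest 95% interval among them reached down to -0.31. The median difference over the 9 genes was 0.08, beside -0.02 over all genes. Asns, Psat1 and Sars1, which make amino acids or load them on tRNA, were not called where Atf4, Ddit3 and the amino acid importer Slc38a2 were. Markers of macrophages (0 of 9 called), endothelium (0 of 7), red cells (0 of 4), neutrophils (0 of 2) and liver (0 of 8) did not pass the test in this comparison. Among kidney markers 1 of 9 passed, Cubn, the proximal tubule receptor cubilin, at -0.24.

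**Figure D1:**
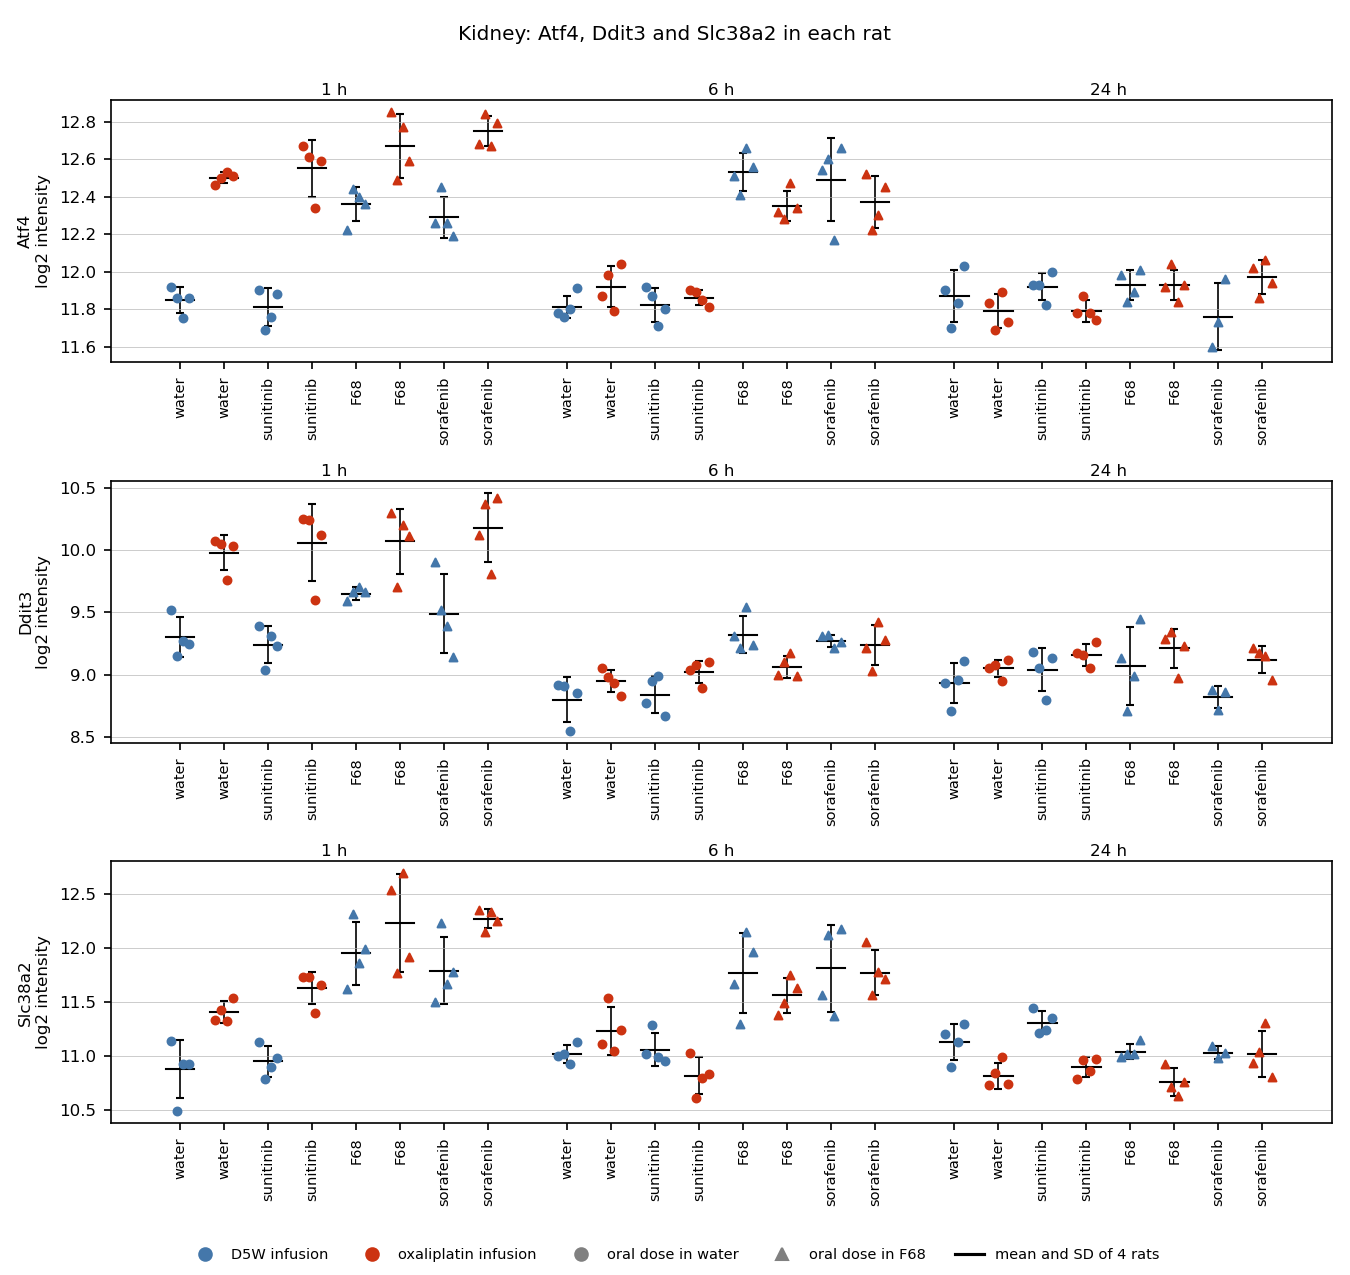
Log2 intensity of Atf4, Ddit3 and Slc38a2 (y axes) in every kidney, by oral dose within each time after the oral dose (x axis). Colour marks the infusion, triangles mark oral doses in F68, and bars are the mean and SD of 4 rats (3 for D5W then sorafenib at 24 h). Among rats given a vehicle by mouth, Atf4 and Ddit3 lie higher after oxaliplatin at 1 h. Slc38a2 overlaps widely there, and its oxaliplatin then water rats lie below the D5W then F68 rats. At 6 h Atf4 separates F68 and sorafenib rats (12.17 to 12.66) from water and sunitinib rats (11.71 to 12.04).

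Taken by oral vehicle, 3 genes were called at 1 h in water rats and 2 in F68 rats. Among water rats, Atf4 was 11.92, 11.86, 11.75 and 11.86 after D5W and 12.46, 12.5, 12.53 and 12.51 after oxaliplatin, a 1.57-fold difference (0.65 ± 0.08, limma adjusted p = 9.86e-10). Ddit3 was 9.52, 9.15, 9.27 and 9.25 against 10.07, 10.05, 9.76 and 10.03, 1.6-fold higher (0.68 ± 0.12, limma adjusted p = 0.000104). Slc38a2 was 11.14, 10.49, 10.93 and 10.93 against 11.33, 11.43, 11.32 and 11.54, 1.44-fold higher (0.53 ± 0.15, limma adjusted p = 0.0297), a call that was lost without any of 5 arrays. In each of these the lowest oxaliplatin rat lay above the highest D5W rat, and 2.29% of all genes were called higher. Among F68 rats, Atf4 was 0.32 ± 0.08 higher (limma adjusted p = 0.00799) and Ddit3 0.42 ± 0.12 (0.0454), while Slc38a2 at 0.28 was not called (0.479), beside 1.62% of all genes called higher. In the F68 rats Atf4 lost its call without either of 2 arrays, with adjusted p up to 0.102, and Ddit3 without any of 7, up to 0.239. The oxaliplatin difference of Atf4 was smaller by 0.34 in F68 rats (95% interval -0.55 to -0.12), but this comparison did not pass adjustment (limma adjusted p = 1).

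At 6 and 24 h no member was called after oxaliplatin in kidney. At 6 h the 9 genes ranged from -0.15 for Chac1 to 0.08 for Sars1 while 20.6% of all genes were called. Within water rats Sars1 alone was called at 6 h, 0.20 ± 0.05 higher (limma adjusted p = 0.00267), beside 6.81% of all genes. At 24 h none of the 9 was called beside 7.8% of all genes, with Slc38a2 at -0.30 (0.0733) and Asns at 0.30 (0.178). The change of the oxaliplatin difference from 1 to 6 h was itself called for Atf4, by -0.52 ± 0.08 (limma adjusted p = 7.12e-07), and for Ddit3, by -0.61 ± 0.12 (0.000398), with 2.75% of all genes called lower. For Slc38a2 it was -0.40 and not called (0.0908).

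Other genes of the pathway were uneven at 1 h after oxaliplatin. Among partners and relatives of ATF4, 3 of 6 rose: Atf3, a stress-induced repressor of the same family, by 4.90, Cebpb by 1.03 and Cebpg by 0.15. Of the eIF2 kinases and phosphatase subunits 2 of 7 rose, Ppp1r15a (GADD34, which brings phosphatase to eIF2 and ends the response) by 1.19 and its constitutive relative Ppp1r15b by 0.26. Of 18 aminoacyl-tRNA synthetases none rose and Qars1 fell by 0.09, and 0 of 7 further amino acid transporters and 0 of 9 serine, glycine and one-carbon enzymes were called. Of the unfolded protein response genes Dnajb9 rose by 0.54 and the sensor Atf6 fell by 0.23, among 8 tested. Of 8 other targets of the response, Gdf15, a stress cytokine, rose by 2.27 and Vldlr, a lipoprotein receptor, fell by 0.22.

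At 6 h after oxaliplatin 5 of the 18 kidney synthetases rose, led by Rars1 at 0.37, Nars1 at 0.28 and Tars1 at 0.23, and 13 were not called, beside 12.7% of all genes called higher. Of the 8 unfolded protein response genes 6 fell, beside 7.88% of all genes called lower, led by the endoplasmic reticulum proteins Sdf2l1 at -0.71, Pdia4 at -0.61 and Hspa5 (BiP) at -0.54. The medians of the lists were 0.08 and -0.34, beside 0.01 over all genes. Eif2s1, the alpha subunit of eIF2, rose by 0.34, and the leucine transporter Slc7a5, a partner of Slc3a2, fell by 0.36. Of the 8 other targets of the response, Gdf15 was still higher, by 1.10, and Herpud1 fell by 0.37. Among kidney markers 3 of 9 fell, Cubn by 0.47 the most, and Adgre1, 1 of 9 macrophage markers, fell by 0.83. Their part in these changes was not tested.

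The kinase inhibitors added nothing that was called to the kidney response of these genes. Rats given oxaliplatin then sunitinib had Atf4 at 12.67, 12.61, 12.34 and 12.59 at 1 h, 1.63-fold above D5W then water (0.71 ± 0.08, limma adjusted p = 5.4e-11). Their Ddit3 was 10.25, 10.24, 9.6 and 10.12 (0.76 ± 0.12, 7.13e-06), and their Slc38a2 11.73, 11.73, 11.4 and 11.66 (0.76 ± 0.15, 0.000236). All 3 were above each of the D5W then water rats, and 10.3% of all genes were called higher. Sars1 was called as well, at 0.16, but without the 1 array of unusual median it was 0.08 and not called (limma adjusted p = 0.421). At 6 h Sars1 was 0.25 ± 0.05 higher in this group (5.02e-05), beside 9.98% of all genes. These comparisons share the D5W then water rats with those above.

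Rats given oxaliplatin then sorafenib had Ddit3 at 10.12, 10.37, 9.81 and 10.42 at 1 h, all above the 9.59, 9.66, 9.7 and 9.66 of D5W then F68, 1.44-fold higher (0.53 ± 0.12, limma adjusted p = 0.00683). Atf4 was 0.39 ± 0.08 higher (0.000633), and 1.67% of all genes were called higher. No member was called for sunitinib against water or sorafenib against F68 in kidney after either infusion, nor was any interaction with oxaliplatin. After D5W the sunitinib differences lay between -0.16 and 0.18 over the 3 times, with 95% intervals reaching from -0.35 to 0.54. The sorafenib differences lay between -0.25 and 0.17, with intervals from -0.52 to 0.54. Very few genes of any kind were called in these kidneys: 0.0244%, 0% and 0% with sunitinib and 0%, 0.0731% and 0.203% with sorafenib at 1, 6 and 24 h.

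More members were called higher for F68 against water in kidney than in any other comparison made here. In kidneys of D5W rats, F68 against water raised 2 of the 9 genes at 1 h and 5 at 6 h, and none at 24 h. At 1 h Slc38a2 was 11.14, 10.49, 10.93 and 10.93 with water and 11.62, 12.31, 11.86 and 11.99 with F68. The groups did not overlap, and the difference was 2.1-fold (1.07 ± 0.15, limma adjusted p = 4.66e-06). Atf4 was 11.92, 11.86, 11.75 and 11.86 with water and 12.22, 12.44, 12.4 and 12.36 with F68, again without overlap and 1.42-fold higher (0.51 ± 0.08, 1.71e-05). Ddit3 was at 0.35 and not called (0.0861). Of all genes 2.68% were called higher.

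At 6 h the members called were the regulators Atf4 and Ddit3, the transporter Slc38a2, and Asns and Sars1, which make asparagine and load serine on tRNA. Atf4 was 11.78, 11.76, 11.8 and 11.91 with water and 12.51, 12.41, 12.66 and 12.56 with F68, 1.65-fold higher (0.72 ± 0.08, limma adjusted p = 4.55e-10). Asns was 7.59, 7.62, 7.29 and 7.55 with water and 8.4, 7.95, 8.58 and 8.32 with F68, 1.74-fold higher (0.80 ± 0.19, 0.00797). Every F68 rat lay above every water rat for both genes.

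Slc38a2 was 11.0, 11.02, 10.93 and 11.13 with water and 11.67, 11.3, 12.15 and 11.96 with F68, 1.68-fold higher at 6 h (0.74 ± 0.15, limma adjusted p = 0.00186). Ddit3 was 8.92, 8.91, 8.55 and 8.85 with water and 9.31, 9.21, 9.54 and 9.24 with F68, 1.43-fold higher (0.52 ± 0.12, 0.00914). Neither gene had groups that overlapped. Sars1 ran from 10.74 to 10.83 with water and from 11.09 to 11.18 with F68, 1.28-fold higher (0.36 ± 0.05, 8.27e-07). The 5 genes of 9 stood beside 2.29% of all genes called higher, and the median over the 9 was 0.36 beside -0.01 over all genes. Trib3 at 0.09, Chac1 at 0.19, Psat1 at 0.07 and Slc3a2 at -0.12 were not called. Without the third F68 rat, Ddit3, Asns and Slc38a2 lost their calls, with adjusted p up to 0.117, 0.101 and 0.0518, while Atf4 and Sars1 were called whichever array was left out. Ddit3 lost its call without the third water rat too.

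At 24 h F68 and water kidneys did not differ in a called way, with differences from -0.09 for Slc38a2 to 0.14 for Ddit3 and 0.00812% of all genes called.

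Genes of other lists of the pathway rose in the same comparison, F68 against water in D5W kidneys at 6 h. Those lists were also chosen with earlier results of these data known, so they are not independent evidence. Of 18 aminoacyl-tRNA synthetases 8 rose and none fell, with Cars1 at 0.54, Iars1 at 0.39 and Mars1 at 0.29. Of 8 unfolded protein response genes 5 rose, with Pdia4 at 0.67, Sdf2l1 at 0.56 and Hspa5 at 0.52. Nupr1, a stress-induced chromatin protein and target of ATF4, rose by 2.27, Herpud1, which acts in degradation of endoplasmic reticulum proteins, by 0.51, and Aldh18a1, which starts proline synthesis, by 0.40. The medians were 0.18 for the synthetases and 0.34 for the unfolded protein response genes. At 1 h Ppp1r15a rose by 0.58. Among markers, Aqp2, the water channel of the collecting duct, was 0.72 higher at 6 h as 1 of 9 kidney markers, and at 1 h Apoc3 was -0.46 lower as 1 of 8 liver markers. No macrophage, endothelial, red cell or neutrophil marker was called at 6 h (0 of 9, 0 of 7, 0 of 4 and 0 of 2). The dosing day went with the vehicle in all of these values and cannot be told apart from it.

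**Figure D2:**
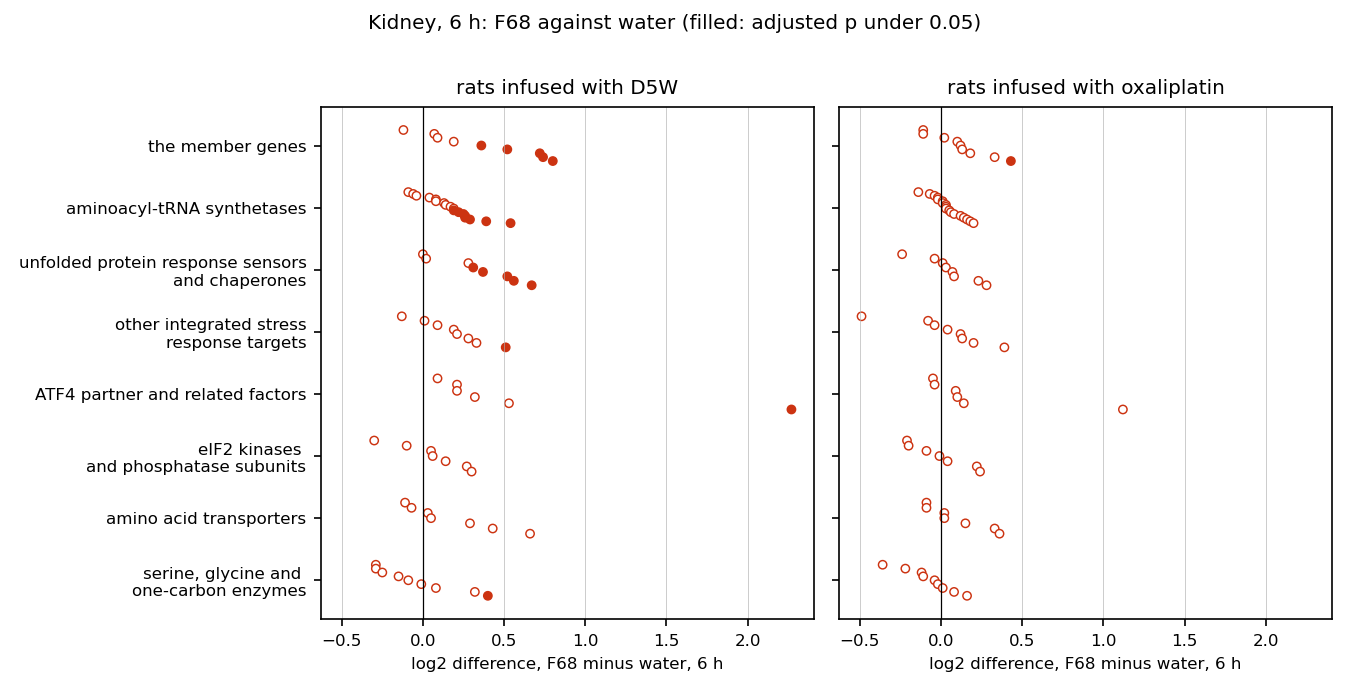
Log2 difference of F68 minus water at 6 h in kidney (x axis) for each tested gene of the named lists (y axis), in rats infused with D5W (left) and with oxaliplatin (right). Filled points have an adjusted p under 0.05; 5 of the 9 members and 8 of 18 synthetases are filled on the left, 1 member and no synthetase on the right.

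Among oxaliplatin rats the same comparison gave fewer calls. At 1 h Slc38a2 was 11.33, 11.43, 11.32 and 11.54 with water and 12.53, 11.77, 12.69 and 11.92 with F68, 1.77-fold higher (0.82 ± 0.15, limma adjusted p = 0.0031), with 1.08% of all genes called higher. That call was lost without the third F68 rat (0.055). At 6 h Atf4 was 0.43 ± 0.08 higher (0.0013) beside 0.114% of all genes. Asns was at 0.02 there, against 0.80 in D5W rats, Ddit3 at 0.12, Sars1 at 0.13 and Slc38a2 at 0.33. The difference between the infusions was -0.78 for Asns (95% interval -1.32 to -0.25) and -0.23 for Sars1 (-0.36 to -0.09), and it was not called for any member (limma adjusted p = 0.889 or more). In these rats 0 of 18 synthetases and 0 of 8 unfolded protein response genes were called at 6 h.

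The sunitinib rats, dosed in water, and the sorafenib rats, dosed in F68 on the other day, lay beside their own vehicle. Over both infusions at 6 h, kidney Atf4 ran from 11.76 to 12.04 with water, 11.71 to 11.92 with sunitinib, 12.28 to 12.66 with F68 and 12.17 to 12.66 with sorafenib, 8 rats each. The 16 rats given F68 or sorafenib were all above the 16 given water or sunitinib. This is a description and not a further test, since the inhibitor and its vehicle went together.

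In the liver, oxaliplatin raised Slc38a2 at 1 h and Slc3a2 at 6 h, and left the other members without a call. At 1 h Slc38a2 ran from 9.38 through 9.81 to 10.51 in 8 D5W rats and from 10.3 through 10.59 to 11.65 in 8 oxaliplatin rats, 1.84-fold higher (0.88 ± 0.17, limma adjusted p = 0.000188). The ranges overlapped at their ends, and 1.59% of all 11619 genes were called higher. In water rats it was 9.47, 9.7, 9.38 and 9.86 against 10.3, 11.04, 10.74 and 11.65, 2.51-fold higher without overlap (1.33 ± 0.24, 0.000122), beside 0.886% of all genes. In F68 rats it was at 0.44 and not called (0.802). After oxaliplatin then sunitinib it was 10.95, 10.89, 10.68 and 10.73, 2.31-fold above D5W then water (1.21 ± 0.24, 0.000954), beside 0.422% of all genes.

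Atf4 and Ddit3, which rose with Slc38a2 in kidney, were not called in liver at 1 h, where Ddit3 was the lowest of the members at -0.18. Of partners of ATF4 in liver, 3 of 6 rose, Atf3 by 1.25, Cebpb by 0.74 and Jdp2 by 0.36, and Ppp1r15a rose by 0.43. In the same comparison 5 of 7 endothelial markers fell, with Clec14a at -0.91 and Kdr at -0.84, and 2 of 10 macrophage markers. The mean of the endothelial markers was 8.62 to 8.86 in D5W rats and 8.03 to 8.31 in oxaliplatin rats, and that of the macrophage markers 9.82 to 10.27 and 9.48 to 10.12. Their part in the result was not tested, and in whole tissue fewer cells of a type and less RNA per cell cannot be told apart.

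At 6 h Slc3a2 ran from 11.25 through 11.48 to 11.81 in D5W livers and from 11.66 through 11.93 to 12.04 in oxaliplatin livers, 1.33-fold higher (0.41 ± 0.09, limma adjusted p = 0.000963), with 6.72% of all genes called higher. In water rats it was 11.43, 11.43, 11.27 and 11.25 against 11.94, 11.98, 11.82 and 11.66, 1.42-fold higher (0.51 ± 0.13, 0.0109), beside 2.79% of all genes. That call was lost without either of 2 arrays (0.0541 at most). In F68 rats Slc3a2 was at 0.32 and not called (0.226). After oxaliplatin then sunitinib it was 12.01, 12.14, 11.91 and 11.69, 1.51-fold above D5W then water (0.59 ± 0.13, 0.00202), beside 2.7% of all genes. Every oxaliplatin rat of both groups was above every D5W then water rat.

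Of the liver synthetases 7 of 18 rose at 6 h, with Hars1 at 0.35, Yars1 at 0.31 and Nars1 at 0.30, and Eif2s1 rose by 0.32. Asns was at 0.50 and not called, with an interval that reached 0.96. Macrophage markers fell at 6 h too, 5 of 10, with Adgre1 at -1.13, and their mean was 9.80 to 11.11 in D5W rats and 9.59 to 10.04 in oxaliplatin rats. Of the endothelial markers Stab2 fell, by 1.10.

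At 24 h no member was called in liver, beside 6.42% of all genes, and Atf4 was at -0.27 (limma adjusted p = 0.0904). In water rats alone Atf4 was 12.28, 12.18, 12.11 and 12.04 after D5W and 11.78, 11.5, 11.54 and 11.56 after oxaliplatin, 1.47-fold lower without overlap (-0.56 ± 0.14, limma adjusted p = 0.0256), beside 0.8% of all genes called lower. That call was lost without any of 5 arrays. In F68 rats Atf4 was 11.85, 11.61, 11.75 and 12.1 after D5W and 11.93, 11.98, 12.08 and 11.43 after oxaliplatin, a difference of 0.03 (0.941) between overlapping groups. The difference between the vehicles, 0.58 (95% interval 0.19 to 0.98), was not called (0.358). With both vehicles pooled, 7 of 10 macrophage markers fell at 24 h, with Lyz2 at -0.66, and all 4 red cell markers, with Alas2 at -1.68. The mean of the macrophage markers was 9.99 to 10.23 after D5W then water and 9.60 to 10.01 after oxaliplatin then water, and that of the red cell markers 9.68 to 10.14 and 8.60 to 9.04. Their part in the Atf4 values was not tested. The oxaliplatin difference of Slc3a2 changed from 6 to 24 h by -0.54 ± 0.13 (0.00395), beside 7.28% of all genes called lower. No liver member was called for F68 against water, where 0.198%, 0.396% and 0% of all genes were called at 1, 6 and 24 h. The liver intervals were wide, and at 6 h Psat1, the highest member at 0.73, was among those whose intervals ran up to 1.43.

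**Figure D3:**
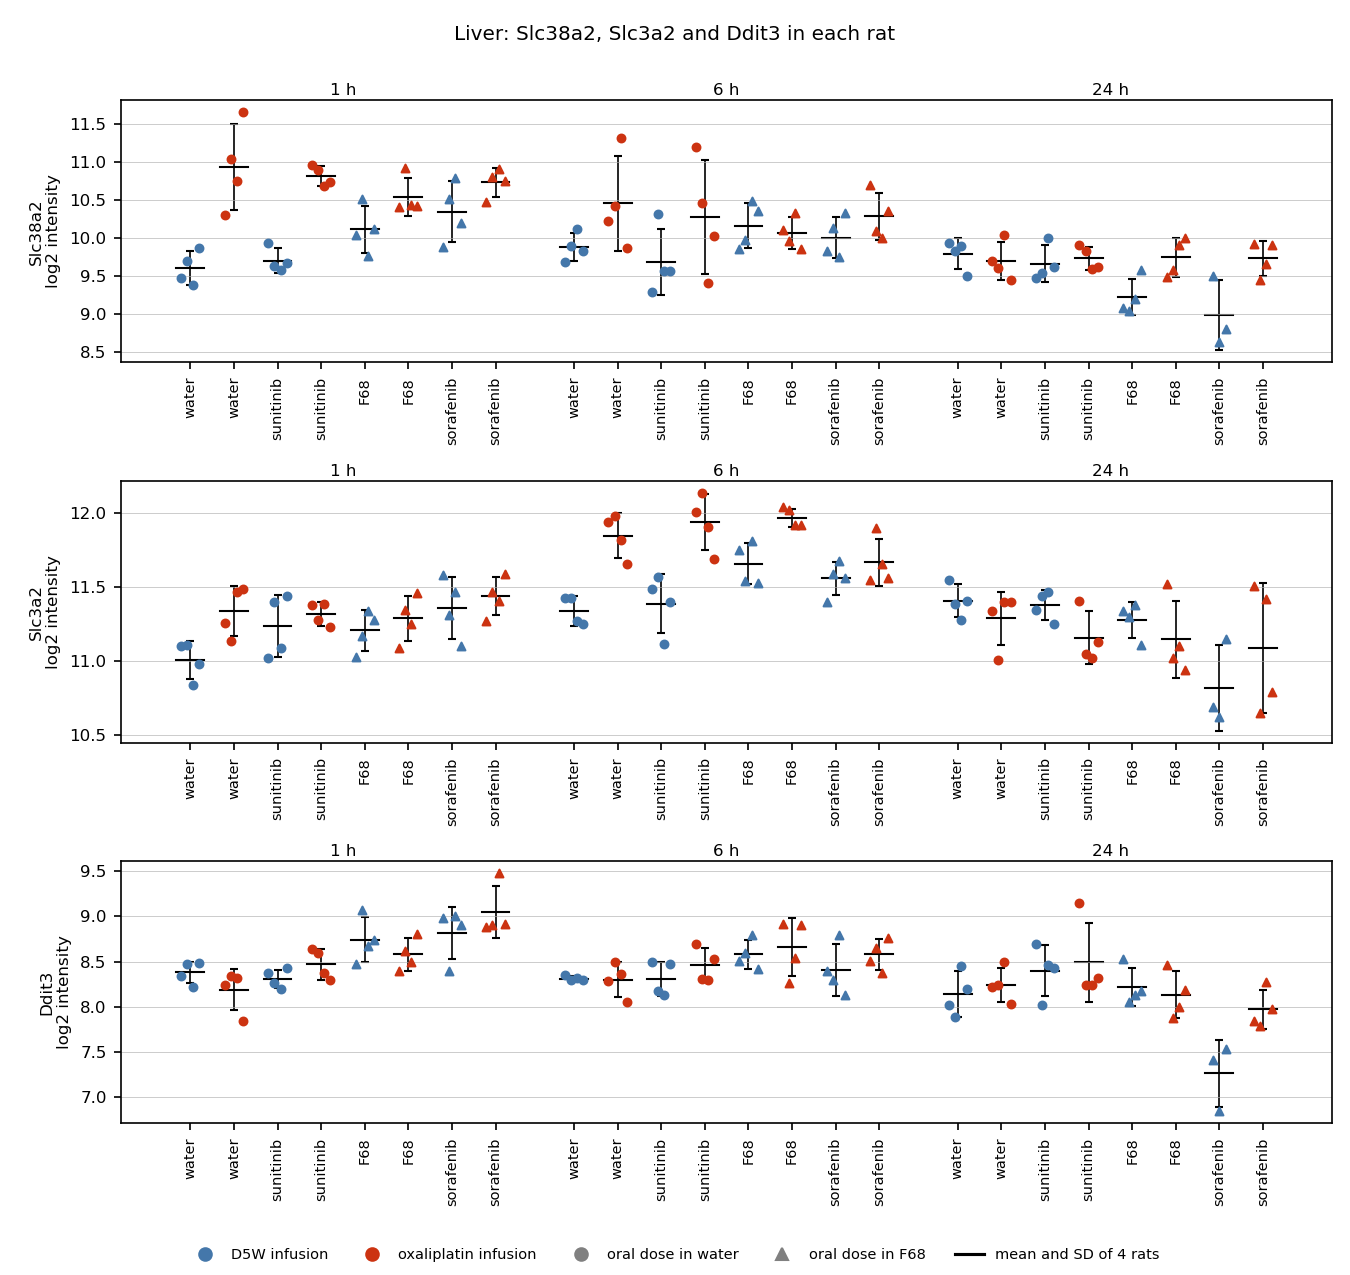
Log2 intensity of Slc38a2, Slc3a2 and Ddit3 (y axes) in every liver, by oral dose within each time after the oral dose (x axis), with colour for the infusion, triangles for oral doses in F68, and bars for the mean and SD of 4 rats (3 for D5W then sorafenib at 24 h). Slc38a2 of the oxaliplatin then water rats lies at 10.3 to 11.65 at 1 h, and Ddit3 of the D5W then sorafenib rats at 6.84 to 7.53 at 24 h.

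Sorafenib after D5W came with lower Ddit3 in liver at 24 h, in a comparison where most of the transcriptome differed. Ddit3 was 8.53, 8.05, 8.13 and 8.17 with F68 and 7.41, 6.84 and 7.53 in the 3 sorafenib rats left, 1.94-fold lower without overlap (-0.96 ± 0.18, limma adjusted p = 3.59e-06). Sars1 was at -0.50 ± 0.11, Slc3a2 at -0.46 ± 0.14 and Atf4 at -0.34 ± 0.15, also called. The Atf4 call was lost without any of 3 arrays, with differences up to -0.21 and adjusted p up to 0.288. But 48.2% of all genes were called lower, and the median of all genes was -0.24. After a further quantile normalization of the arrays Ddit3 was still lower, at -0.89, while Sars1 at -0.08, Slc3a2 at -0.09 and Atf4 at -0.04 lost their calls. Of 18 synthetases 14 were called lower, with Rars1 at -0.70.

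These 3 livers also had a smaller Actb 3′ minus 5′ difference, the direction away from shorter RNA. It ran from 0.64 to 0.76, below the 0.77 to 0.85 of the D5W then F68 livers they were compared with. In the D5W then water livers at 24 h it ran from 0.75 to 0.9, which overlapped the sorafenib range. The Actb 3′ minus 5′ probe set difference widens as RNA or its copies shorten. Its median was 0.68 in the 3 sorafenib livers and 0.77 to 0.86 in the other groups at 24 h. The mean of the endothelial markers was 7.96 to 7.99, against 8.53 to 8.64 with F68, and that of the macrophage markers 9.33 to 9.55, against 9.89 to 10.41. Of 6 kidney markers 4 were called higher, with Umod at 0.87, and of 4 heart markers 2, with Myl2 at 0.37. The part of all these markers in the result was not tested. The paper held the unusual value distribution of this group likely to be biological, but asked for further quality assessment of its arrays. After oxaliplatin, Ddit3 with sorafenib was 7.84, 7.79, 8.27 and 7.97, against 8.46, 7.87, 8.0 and 8.18 with F68. The interaction was 0.80 ± 0.24 for Ddit3 (limma adjusted p = 0.00763), beside 28.7% of all genes called higher, and it was lost without the third D5W then sorafenib array (0.0732). At 1 and 6 h sorafenib gave no called member beside 0.0689% and 0.0344% of all genes, and sunitinib none at any time beside 0%, 0% and 0.964%. The 95% intervals of the sunitinib differences reached from -1.03 to 1.46.

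In the heart the members moved little, and the calls gathered where a whole group of hearts stood apart. Oxaliplatin gave no called member at 1 h, beside 1.23% of all 11317 genes. At 6 h Slc3a2 was 0.27 ± 0.06 higher (limma adjusted p = 0.0109), beside 0.53% of all genes called higher, and it lost the call without the fourth oxaliplatin then water rat (0.0904). In that comparison 2 of 10 macrophage markers fell, Adgre1 by 0.84 and F13a1 by 0.72. At 24 h Sars1 was 0.21 ± 0.04 higher (2.76e-05) and Slc3a2 0.20 ± 0.06 (0.014), beside 14.5% of all genes. The Slc3a2 call was lost without either the first D5W then F68 or the third oxaliplatin then F68 rat (0.088 at most). In the same comparison 4 of 8 liver markers were lower, with Alb at -2.83, and 5 of 5 red cell markers, with Alas2 at -1.02. Alb ran from 7.41 to 11.92 after D5W then water and 9.07 to 11.58 after D5W then F68, and from 6.66 to 8.2 and 7.65 to 8.46 in the matching oxaliplatin groups. The mean of the red cell markers was 9.21 to 9.92 in D5W rats and 8.85 to 9.36 in oxaliplatin rats, and the part of these markers in the Sars1 and Slc3a2 values was not tested.

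The Sars1 calls at 24 h shared the D5W then water hearts. Those hearts read 9.52, 9.58, 9.53 and 9.63 for Sars1, below every other heart at 24 h, whose values ran from 9.72 to 9.98. Against them Sars1 was 0.34 ± 0.05 higher after oxaliplatin then water, 0.33 ± 0.05 after D5W then sunitinib, 0.28 ± 0.05 after oxaliplatin then sunitinib and 0.22 ± 0.05 after D5W then F68. The backgrounds of genes called higher were 16.2%, 19%, 15.4% and 12.1%. Within F68 rats oxaliplatin gave 0.07 for Sars1, not called, and F68 against water within oxaliplatin rats gave -0.05. Slc3a2 was called in 3 of these comparisons, at 0.23, 0.23 and 0.24, and each call was lost without any of 5 arrays.

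**Figure D4:**
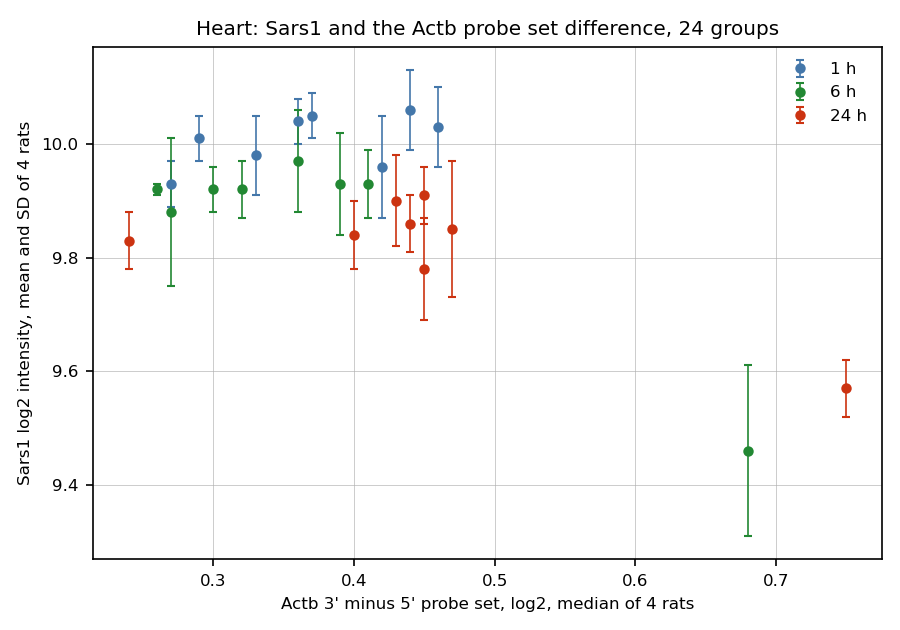
Mean and SD of Sars1 log2 intensity in heart (y axis) against the median Actb 3′ minus 5′ probe set difference on the log2 scale (x axis), for 24 groups of 4 rats coloured by time after the oral dose. The D5W then sorafenib hearts at 6 h (0.68, Sars1 9.46) and the D5W then water hearts at 24 h (0.75, Sars1 9.57) lie apart from the other 22 groups (0.24 to 0.47, Sars1 9.78 to 10.06).

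The D5W then water hearts at 24 h also stood apart in the Actb 3′ minus 5′ difference, which was wider there. Their Actb 3′ minus 5′ difference had a median of 0.75, and that of the D5W then sorafenib hearts at 6 h a median of 0.68, against 0.24 to 0.47 in the other 22 heart groups. In the D5W then sorafenib hearts at 6 h Sars1 read 9.29, 9.61, 9.56 and 9.37, against 9.76, 9.78, 10.0 and 9.98 with F68, 1.34-fold lower (-0.42 ± 0.05, limma adjusted p = 9.69e-10). Asns at -0.39, Slc3a2 at -0.30 and Chac1 at -0.21 were also called lower and Slc38a2 at 0.30 higher, beside 41.9% of all genes called. Asns lost its call without any of 3 arrays, Chac1 without any of 4 and Slc38a2 without the fourth sorafenib rat, with adjusted p up to 0.175, 0.121 and 0.0546. Of 10 macrophage markers 5 were lower, with C1qb at -1.13, and their mean was 8.46 to 8.67 with sorafenib and 8.74 to 9.39 with F68. After oxaliplatin, Sars1 with sorafenib at 6 h was 9.91 to 9.94 and with F68 9.89 to 9.96, and the interaction was 0.42 ± 0.08 (1.68e-05), beside 12.4% of all genes called higher. The interaction of oxaliplatin and sunitinib at 24 h was -0.39 ± 0.08 for Sars1 (0.000125), beside 11.5% called lower. The oxaliplatin difference of Sars1 was 0.27 smaller in F68 than in water rats at 24 h (-0.27 ± 0.08, 0.0189), beside 3.2%, and this was lost without either of 2 arrays (0.0801 at most). The part of RNA quality and of macrophage RNA in these calls was not tested.

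At 1 h the heart calls concerned Asns, Slc38a2 and Ddit3. Slc38a2 was 0.38 ± 0.09 higher with F68 than with water (limma adjusted p = 0.00425) and, against the same F68 hearts, 0.36 lower with sorafenib (0.00773). Asns was 5.85, 5.94, 6.07 and 6.14 with water and 5.52, 5.31, 5.47 and 5.34 with F68 (-0.59 ± 0.15, 0.00582), and 0.43 higher with sorafenib than with F68 (0.0422), a call that was lost without any of 5 arrays (0.208 at most). Only 13 of 96 heart arrays had Asns over the floor, so that these are differences near background. The backgrounds of genes called either way were 11.6% for F68 and 12.2% for sorafenib. With F68, 5 of 10 macrophage markers were lower than with water, with C1qa at -0.65, and their mean was 9.04 to 9.52 with water and 8.60 to 9.30 with F68. With sorafenib it was 8.64 to 9.02, and Adgre1 alone was called, at -0.55. The part of these markers was not tested.

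Ddit3 in heart at 1 h was 9.77, 9.58, 9.72 and 9.46 after D5W then F68, 9.79, 9.2, 9.41 and 9.07 after D5W then sorafenib, 9.53, 9.04, 9.45 and 9.44 after oxaliplatin then F68 and 9.76, 9.47, 9.86 and 9.58 after oxaliplatin then sorafenib. All 4 groups overlapped. The interaction was 0.57 ± 0.17 (limma adjusted p = 0.0313), beside 4.75% of all genes called higher, and it was lost without any of 7 arrays.

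**Figure D5:**
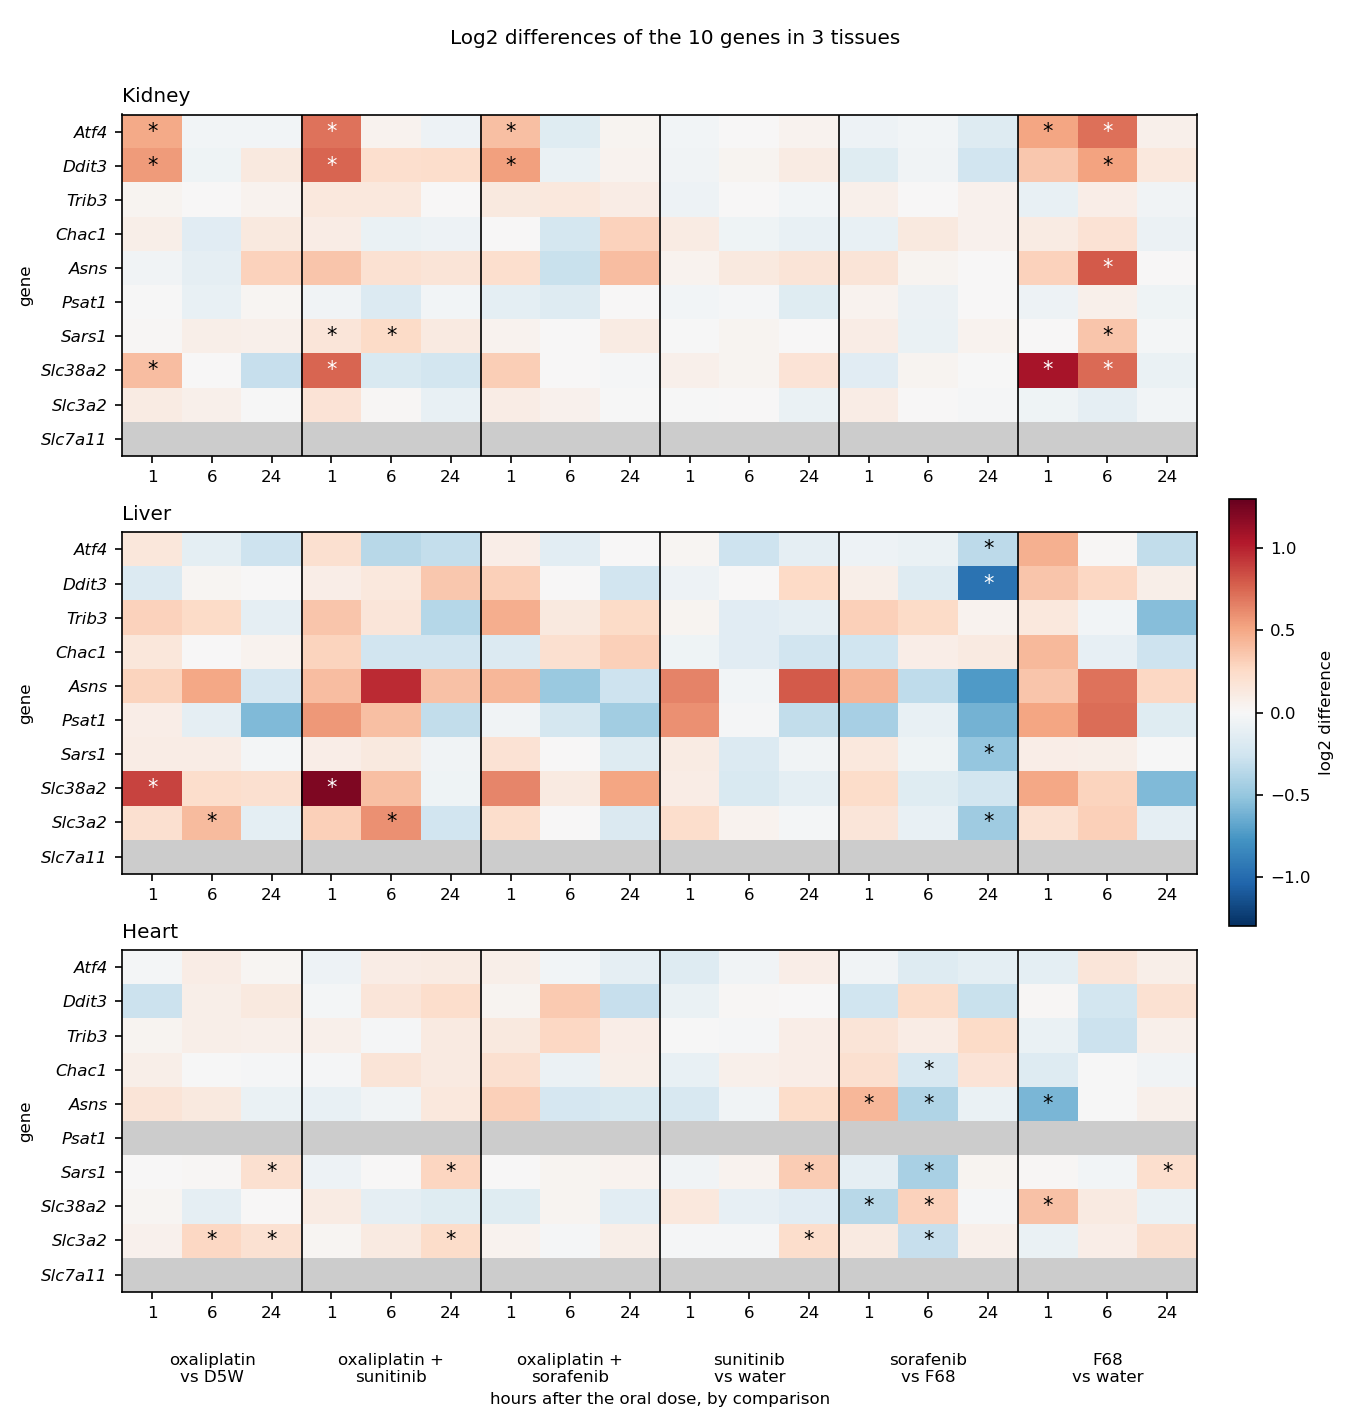
Log2 differences (colour) of the 10 genes (rows) in kidney, liver and heart at 1, 6 and 24 h for 6 comparisons (columns), in which the combinations are set against D5W then water or D5W then F68 and the inhibitors and F68 are compared in D5W rats. Asterisks mark an adjusted p under 0.05 and grey rows were not tested. The kidney calls lie at 1 h for oxaliplatin and both combinations, and at 1 and 6 h for F68. Sars1 is also called in kidney at 6 h for oxaliplatin then sunitinib. The highest kidney call is Slc38a2 at 1.07, for F68 at 1 h.

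Time itself moved some members in rats given vehicles only, and the values of water and F68 rats are given apart. In kidney Sars1 was 0.16 higher and Ddit3 0.41 lower at 6 h than at 1 h, beside 1.98% of all genes called, and Atf4 was 0.27 lower at 24 h than at 6 h, beside 7.33%. Within F68 rats Sars1 was 0.34 higher (limma adjusted p = 9.05e-06) and Atf4 0.60 lower (2e-07), beside 1.32% and 10.5% of all genes. Within water rats Sars1 was at -0.02 (0.955) and Atf4 at 0.05 (0.943), beside 0.162% and 0%. Ddit3 was at -0.33 in F68 and -0.49 in water rats and was called in neither.

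In liver Asns was 0.97 ± 0.23 higher at 6 h than at 1 h, 1.95-fold (limma adjusted p = 0.00343), with Trib3 at 0.40, Slc3a2 at 0.39 and Sars1 at 0.27 called higher as well, beside 7.87% of all genes. The 8 liver values of Asns ran from 6.97 through 7.2 to 7.99 at 1 h and from 7.61 through 8.25 to 8.95 at 6 h. Trib3 lost its call without either of 2 arrays (0.0776 at most). Within F68 rats Asns at 1.14 and Slc3a2 at 0.45 were called, beside 4.35% of all genes, and within water rats none of the 4, beside 0.396%. From 6 to 24 h Slc38a2 fell by 0.52 in liver (0.041), beside 5.01% of all genes called lower, a call that was lost without any of 10 arrays. It was at -0.94 in F68 rats (0.00784), beside 3.34%, and at -0.09 in water rats (0.915).

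In heart Sars1 fell by 0.14 from 1 to 6 h, Slc38a2 fell by 0.27 and Chac1 rose by 0.19, beside 36.8% of all genes called, and Atf4 fell by 0.15, a call that was lost without any of 4 arrays. Within water rats Sars1 at -0.11, Slc38a2 at -0.14 and Chac1 at 0.11 were not called there. From 6 to 24 h Sars1 was at -0.22 and Slc3a2 at -0.16, Slc38a2 rose by 0.35 and Chac1 fell by 0.19, beside 51.8%. The D5W then water hearts that stood apart made up 4 of the 8 hearts at 24 h. Without them, in F68 rats alone, Sars1 was at -0.10 (limma adjusted p = 0.176) and Slc3a2 at -0.10 (0.416), neither called, while Slc38a2 rose by 0.25 (0.0375) and Chac1 fell by 0.21 (0.0377), beside 26.3% of all genes. Whether the changes with time differed between the vehicles was not tested.

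The members did not share a single profile. Over the 24 group means, Pearson's r in kidney was 0.92 for Atf4 with Slc38a2, 0.82 for Atf4 with Ddit3 and 0.70 for Ddit3 with Slc38a2. In liver it was 0.91 for Asns with Slc3a2, 0.89 for Sars1 with Slc3a2 and 0.79 for Trib3 with Slc3a2. In heart Sars1 with Slc3a2 gave 0.75 and Chac1 with Slc38a2 -0.81. The group means share control rats, dosing days and times, so these values are a description only. The genes outside the list closest to the mean scaled profile of the members were Vps37c (0.891), Sfn (0.875), Cnnm4 (0.873), Zfyve27 (0.867) and Cebpd (0.857) in kidney. In liver they were Coq10b (0.942), Snx15 (0.916), Taf1d (0.905), Fem1a (0.904) and Cntf (0.9), and in heart Rassf1 (0.923), Ccdc22 (0.922), Trip6 (0.913), Plod3 (0.907) and Emd (0.906).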

How the data were processed

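Heart, kidney and liver RNA of 96 rats was measured on 288 arrays. The authors deposited log2 values made by robust multichip averaging (background correction, quantile normalization and median polish), a step that forces arrays to a common distribution and can hide shifts shared by most genes; its version is not given in the sources used here. Of 31099 probe sets, 20832 had 1 gene symbol in the platform annotation, 436 several and 9831 none, and 20764 matched a RefSeq gene of GRCr8. The members and lists were chosen with earlier results of these data known. Each gene was read from its brightest probe set in a tissue; Trib3 alone had 3. With limma 3.58.1 in R 4.3.3, a mean was fitted for each of 24 groups per tissue, and the test took genes over log2 6 on 4 or more arrays, which left 11317 heart, 12310 kidney and 11619 liver genes. The fit was tested on simulated data with known changes. The number of arrays limits the precision. Groups are separate rats by the study design. All 10 members were named, and up to 3 called genes per list were named by size. Values of every rat were given for most members called with a difference of 0.5 or more and for some with less, and ranges for others. Left out were 2 arrays with markers of another organ. Alternatives were array weights, a further quantile normalization, no filter, the second brightest probe set, both arrays kept, single times, single vehicles and each array left out in turn.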

Additional observations from a re-analysis of the deposited data

Results flagged for a closer look

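Single rats stood apart from their group in 2 of the 30 groups of 4 whose values were given in full, by Dixon's criterion on the gap to the nearest of the others. These were the lowest Ddit3 in kidney at 1 h after oxaliplatin then water, 9.76 beside 10.03 to 10.07, and the highest Slc38a2 in liver at 1 h after oxaliplatin then F68, 10.92 beside 10.4 to 10.43. Over all members and groups 42 of 700 were past that criterion, which chance passes in about 5%.

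Effects that differed between groups by their own test were found in all 3 tissues. In kidney, the oxaliplatin difference changed from 1 to 6 h by -0.52 for Atf4 and by -0.61 for Ddit3. In liver, that of Slc3a2 changed from 6 to 24 h by -0.54, and the interaction of oxaliplatin and sorafenib for Ddit3 at 24 h was 0.80. In heart, the interaction with sorafenib was 0.57 for Ddit3 at 1 h and 0.42 for Sars1 at 6 h. For Sars1 at 24 h in heart, the interaction with sunitinib was -0.39, the oxaliplatin difference in F68 rats less that in water rats was -0.27, and the change of the oxaliplatin difference from 6 to 24 h was 0.18, which was lost without the third D5W then F68 heart at 6 h (limma adjusted p = 0.051).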

How the results depend on the processing

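Of 80 called member differences, 52 were called whichever array was left out. Calls were lost for 18 after a further quantile normalization, 13 when arrays of other times were not pooled, 8 with both left-out arrays kept, 5 with array weights, 3 without the filter and 1 with the second brightest probe set. None of these settings changed a direction. The probe set setting says little about the members, because only Trib3 had a second probe set and the values of the other members stayed the same. Keeping both arrays changed nothing in heart, where no array was left out. Sars1 at 24 h in heart changed direction for F68 against water when oxaliplatin rats replaced D5W rats, to -0.05. Counts of calls, among 78 tests each, went as follows. They do not rank the comparisons, because the share of all genes called differed between them. Oxaliplatin against D5W gave 8, and 2 in F68 rats alone, in kidney at 1 h beside 1.62% of all genes called higher. Where the 8 lay, 4.45% of all kidney genes were called higher at 1 h, and 1.59% and 6.72% of liver genes at 1 and 6 h. In heart it was 0.53% and 14.5% at 6 and 24 h. F68 against water gave 10, and 2 in oxaliplatin rats, in kidney beside 1.08% of all genes called higher at 1 h and 0.114% at 6 h. Beside the 10, 2.68% and 2.29% of all kidney genes were called higher at 1 and 6 h. In heart 11.6% were called either way at 1 h and 12.1% higher at 24 h. Sunitinib against water after D5W gave 2, and 1 without the filter, after quantile normalization or with single times. The 2 were in heart at 24 h, where 19% of all genes were called higher. Sorafenib against F68 after D5W gave 11, and 5 after quantile normalization. Most of the 11 came where a large share of all genes was called, 41.9% in heart at 6 h and 48.2% lower in liver at 24 h. The others were in heart at 1 h, beside 12.2%. After oxaliplatin, sorafenib gave 0, and 2 after quantile normalization. Oxaliplatin then sorafenib gave 2, 4 after quantile normalization or with single times, and 5 with array weights. The 2 were in kidney at 1 h, beside 1.67% of all genes called higher. The interaction with sorafenib gave 3, and 5 with array weights. Beside the 3, 4.75% and 12.4% of all heart genes were called higher at 1 and 6 h and 28.7% of liver genes at 24 h. With each array left out in turn, the counts ran from 1 to 3 for sunitinib after D5W, 0 to 1 for sunitinib or sorafenib after oxaliplatin, and 2 to 6 for the interaction with sorafenib, the 6 without the fourth D5W then sorafenib or the second oxaliplatin then sorafenib liver at 24 h. In the other comparisons they ran from 7 to 9 (oxaliplatin), 9 to 12 (sorafenib after D5W), 8 to 10 and 2 to 3 (the combinations with sunitinib and sorafenib) and 7 to 11 (F68). Differences between times in vehicle rats gave 16 calls among 52 tests. In settings chosen after seeing the data there were 5 in water rats alone and 16 in F68 rats alone. The share of all genes called differed too. In kidney it was 0.162% from 1 to 6 h and 0% from 6 to 24 h in water rats. In F68 kidneys it was 1.32% and 10.5%. In liver from 1 to 6 h, 0.396% were called higher in water rats and 4.35% in F68 rats. In water rats kidney Sars1 changed direction from 1 to 6 h, to -0.02, and kidney Atf4 from 6 to 24 h, to 0.05. The cause of these changes was not tested. With both vehicles pooled, 36.8% of all heart genes and 1.98% of kidney genes were called from 1 to 6 h. Of liver genes 7.87% were called higher. From 6 to 24 h it was 51.8% in heart, 7.33% in kidney and 5.01% lower in liver. No paired analysis was possible because the labels give no replicate numbers.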
